A study of Mus musculus with 2 samples.

Results

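The matrix metalloproteases (MMPs), the ADAMTS proteases and their inhibitors, the TIMPs, were followed across the cells of 2 single-cell RNA libraries from C57BL/6 mouse mammary gland. Members were chosen by gene symbol, as numbered Mmp, Adamts or Timp genes with at least 20 unique molecular identifiers (UMIs, each standing for 1 captured transcript 3' end) over both count matrices. Of 45 symbols that matched, 35 had that many: 13 of 22 MMPs, 18 of 19 ADAMTS genes and 4 of 4 TIMPs. They stood among 31053 genes in the matrices, of which 16618 had at least 20 UMIs. The 10 members left out were Mmp24 with 17 UMIs, Adamts13, Mmp25, Mmp8 with 8, Mmp12 with 3, Mmp13 with 2, Mmp20 with 1, and Mmp21, Mmp1b and Mmp10 with 0.

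One library came from mammary gland with the genotype Fgd5-ko, called a cko in its title, and 1 from WT mammary gland. Both were sorted for CD24highCD29+ cells, a gate for basal mammary epithelium, and both titles carry the tag P4, which the labels do not explain. The driver of the conditional deletion, the animals' age and the number of glands pooled are not given in the labels. Fgd5, a guanine nucleotide exchange factor of endothelial cells, stood at 168 CPM (UMIs per 1000000 UMIs of the same cell group, the scale of all levels here) in endothelial-like cells of the Fgd5-ko-labelled library and at 135 CPM in those of the WT-labelled library. In basal-like cells it had 4.07 CPM (389 UMIs) in the Fgd5-ko-labelled library and 0.840 CPM (30 UMIs) in the WT-labelled library. Fgd5 thus goes against the labels, although a 3' count can also come from a transcript that lacks another part. The libraries are therefore named by their labels throughout, and every direction between them depends on those labels.

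The Fgd5-ko-labelled library held 8798 cell barcodes and 136697801 UMIs, and the WT-labelled library held 10735 barcodes and 60566053 UMIs. The authors' deposited cell tables list 6064 and 6588 of these barcodes, with medians of 15712 UMIs per cell in the Fgd5-ko-labelled library and 4954 in the WT-labelled library. A further 1626 and 3490 barcodes outside those tables passed a filter and were used too. The libraries shared 34 barcode sequences. Each genotype has 1 library, so nothing was tested between them, and the 95% intervals reflect counting error alone; where no UMI was read, up to 3 are allowed.

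Cells were clustered without the members, and clusters were named from fixed marker genes. The 5 classes compared were basal-like cells (5565 in the Fgd5-ko-labelled library, 6360 in the WT-labelled library), fibroblast-like cells (556 and 1031), endothelial-like cells (58 and 465), lymphatic endothelial-like cells (67 and 165), and pericyte and vascular smooth muscle-like cells, here mural-like (84 and 197). Each class held all genes of its own marker list. The basal list summed to 14576 CPM in basal-like cells of the Fgd5-ko-labelled library and 18872 CPM in those of the WT-labelled library, and the lymphatic list to 4249 and 7640.3 CPM in lymphatic endothelial-like cells. Basal-like cells were the bulk of the authors' listed cells, and the other 4 classes came from barcodes outside that list, although the sort was for basal cells. Of the unnamed clusters outside the list, 4 had at least 50 cells in each library and are given by their leading genes: cluster 0 (Rbp7, Esm1; 97 and 445 cells), cluster 7 (Psph, Krt6a; 72 and 161), cluster 11 (Car4, Gpihbp1; 84 and 159) and cluster 19 (Kcnj8, Rgs5; 64 and 194). Cluster 19 carries pericyte and endothelial markers together. One unnamed cluster of listed cells, 464 of the 6064 in the Fgd5-ko-labelled library and 0 of the 6588 in the WT-labelled library, scored highest on the basal list but was kept out because Lcn2, a luminal marker, was among its top genes.

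MMPs are zinc proteases that cut collagens, gelatin, proteoglycans and cell surface proteins, some secreted and some held in the membrane. ADAMTS enzymes are secreted relatives: one branch cuts aggrecan and versican, another trims procollagens, and several bind fibrillin microfibrils. TIMPs block MMPs, and Timp3 also blocks ADAMTS proteases and stays bound to the matrix. In the mouse mammary gland these genes are known for the remodelling of ducts and stroma in branching and involution, and Mmp2 and Mmp3 each act in branching.

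Most members had their highest level outside the epithelium. Fibroblast-like cells had the highest level of the 9 cell groups in both libraries for 15 of the 35 members, or 42.9%, against 7.33% of all 16618 genes. These were Mmp2, Mmp3, Mmp14, Mmp16, Mmp19, Mmp23, Mmp27, Adamts2, Adamts5, Adamts12, Adamts14, Adamts16, Adamts19, Timp1 and Timp2. Mural-like cells were highest for Mmp11 and Adamts1 (background 5.46%), and cluster 19 for Adamts4 and Timp3 (background 1.6%). Mmp9 was highest in lymphatic endothelial-like cells (background 9.83%), Adamts10 in endothelial-like cells (background 2.59%), Timp4 in cluster 11 (background 3.75%), Adamts6 in cluster 0 (background 2.41%) and Mmp7 in basal-like cells (background 4.94%). The rank of Mmp7 rests on 17 UMIs in the Fgd5-ko-labelled library and 3 in the WT-labelled library, and that of Adamts6 on 6 and 17. Mmp7 was below what 3 UMIs come to in every other group, so a lower level there cannot be shown. No member was highest in cluster 7 in both libraries (background 3.55%). The highest group differed between the libraries for 11 members, a share under the 58.5% over all genes.

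**Figure D1:**
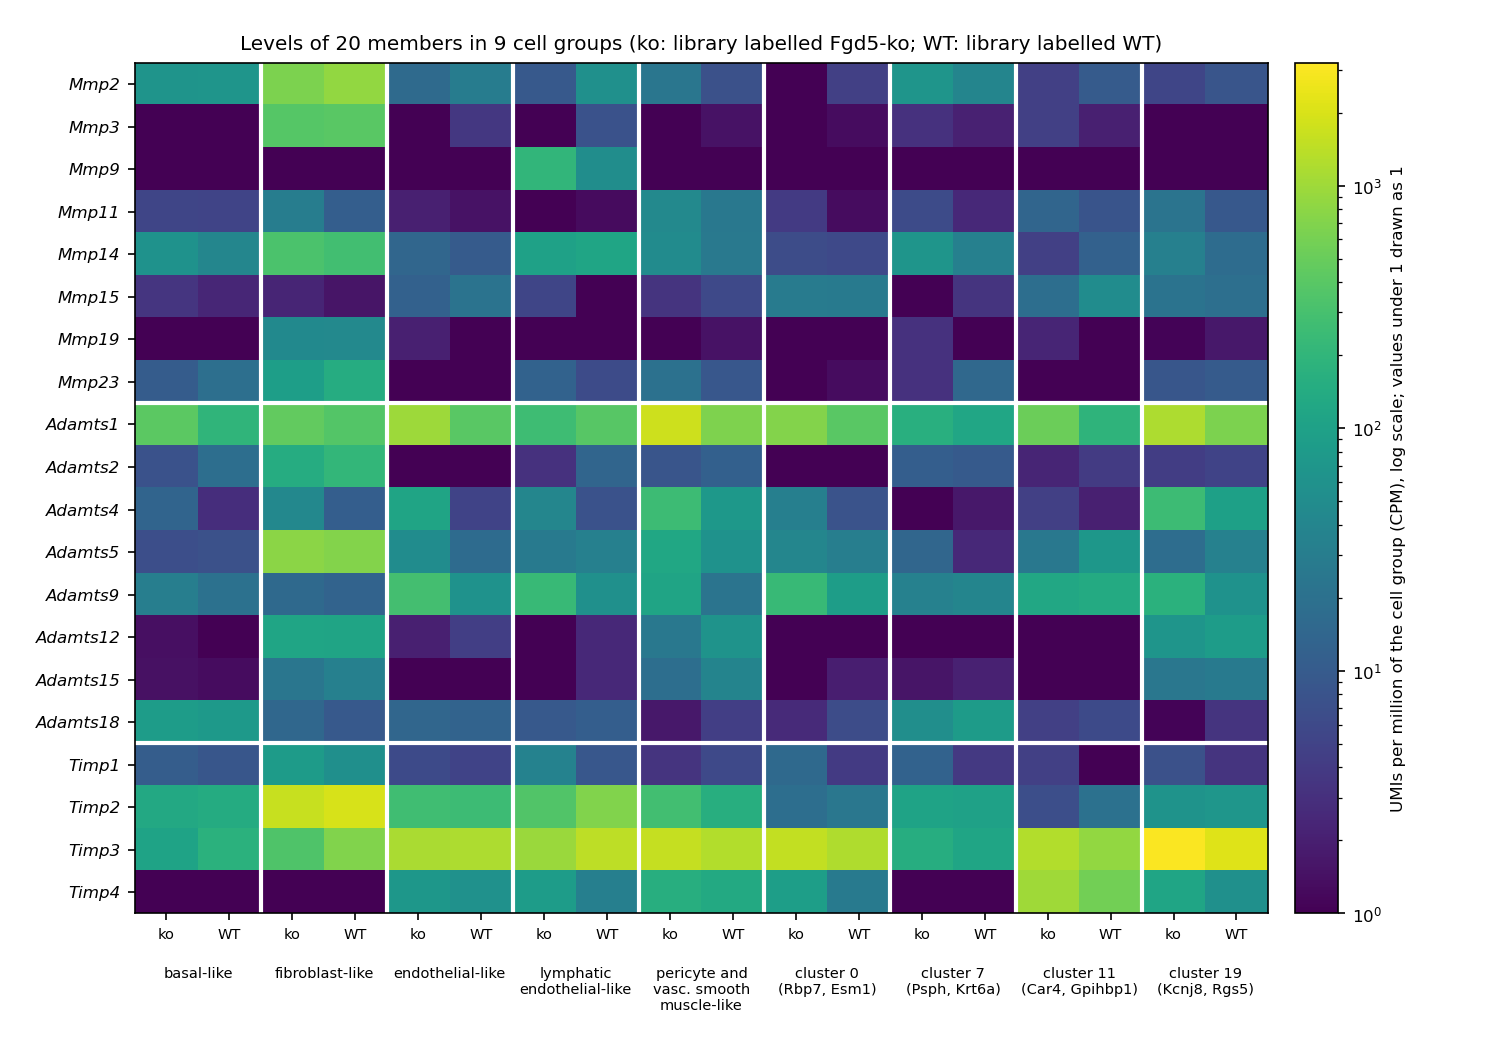
Levels of 20 members in 9 cell groups, in CPM on a log colour scale, with the Fgd5-ko-labelled library left of the WT-labelled library in each group. Mmp3 stands out in fibroblast-like cells (382 and 401 CPM) and Mmp9 in lymphatic endothelial-like cells (204 and 51.6 CPM), while Timp4 is brightest in cluster 11 (997 and 573 CPM).

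Mmp3 and Mmp27 lie in a row of MMP genes on chromosome 9 (GRCm38), and only 3 of the row's 9 genes passed the minimum. The row runs from Mmp13 (chr9:7272514-7283331) to Mmp7 (chr9:7692090-7699585). Mmp3 (chr9:7445822-7455975, plus strand) had 5915 UMIs, Mmp27 (chr9:7571396-7581885, plus strand) had 377 and Mmp7 had 33, while Mmp10, between Mmp3 and Mmp27, had 0. The 250 bases before the start of Mmp3 and Mmp27, the row's genes with most UMIs, are shown beside those of Adamts1, the ADAMTS gene with most UMIs. They are RefSeq promoters on GRCm38.p6, each on its gene's strand: chr9:7445572-7445821 (plus) for Mmp3, chr9:7571146-7571395 (plus) for Mmp27 and chr16:85803114-85803363 (minus) for Adamts1. Capitals mark the letters TGANTCA, the AP-1 motif, and TATAAA, the TATA box, which do not overlap here; both strands were searched.
Mmp3: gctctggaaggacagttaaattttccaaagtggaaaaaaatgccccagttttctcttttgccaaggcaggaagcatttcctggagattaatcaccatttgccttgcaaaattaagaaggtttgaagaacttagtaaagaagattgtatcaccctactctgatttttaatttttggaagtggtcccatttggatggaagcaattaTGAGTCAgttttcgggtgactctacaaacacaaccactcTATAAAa
Mmp27: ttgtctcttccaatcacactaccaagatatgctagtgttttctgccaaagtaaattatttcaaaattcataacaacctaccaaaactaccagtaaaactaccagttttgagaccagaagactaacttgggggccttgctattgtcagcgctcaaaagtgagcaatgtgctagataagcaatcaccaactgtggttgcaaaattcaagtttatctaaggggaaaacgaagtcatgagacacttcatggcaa
Adamts1: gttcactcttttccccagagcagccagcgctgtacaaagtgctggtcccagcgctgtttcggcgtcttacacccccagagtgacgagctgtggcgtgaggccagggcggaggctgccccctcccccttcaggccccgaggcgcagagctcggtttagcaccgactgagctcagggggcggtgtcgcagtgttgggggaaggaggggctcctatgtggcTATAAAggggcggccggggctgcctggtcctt
Mmp3 holds TGAGTCA from position -46 and TATAAA from position -7, counted back from the start, and Adamts1 holds TATAAA from -32. None of the motifs searched is in the Mmp27 window. GC content is 37.6% for Mmp3, 38.8% for Mmp27 and 65.6% for Adamts1. Among 32851 promoters of the same length, 6.75% hold TGANTCA, 12.4% hold TATAAA and 1.55% hold the cyclic AMP element TGACGTCA. Of the 21 members with a promoter in the table, TGANTCA was found in Mmp3 and Mmp7, TATAAA in Adamts1, Mmp3 and Mmp7, and TGACGTCA in none.

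The gelatinases, which cut denatured collagen and basement membrane, were split between cell types. Mmp2 (gelatinase A) had 66.2 CPM in basal-like, 643 in fibroblast-like, 16.4 in endothelial-like, 9.39 in lymphatic endothelial-like and 23.8 in mural-like cells of the Fgd5-ko-labelled library. Mmp2 in the WT-labelled library had 66.8 CPM in basal-like, 853 in fibroblast-like, 29.4 in endothelial-like, 57.9 in lymphatic endothelial-like and 7.36 in mural-like cells. Fibroblast-like cells were thus highest in both libraries, with intervals of 625 to 662 CPM in the Fgd5-ko-labelled library and 832 to 875 CPM in the WT-labelled library. The basal-like level of Mmp2 was nearly the same in both libraries. Mmp3 in basal-like cells was at 0.0465% of its fibroblast-like level in the Fgd5-ko-labelled library and at 0.147% in the WT-labelled library. The same share of the fibroblast-like Mmp2 comes to 0.299 and 1.25 CPM. Mmp3 is uneven among fibroblast-like clusters, so this share can miss RNA from clusters low in Mmp3. The part of fibroblast RNA in the basal-like Mmp2 was not tested.

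Mmp9 (gelatinase B) had 204 CPM in lymphatic endothelial-like cells of the Fgd5-ko-labelled library (260 UMIs, interval 180 to 230) and 51.6 CPM in those of the WT-labelled library (41 UMIs, interval 37.0 to 70.0). Fibroblast-like, endothelial-like and mural-like cells and the 4 unnamed clusters had 0 Mmp9 UMIs in both libraries, and basal-like cells had 0.0209 CPM in the Fgd5-ko-labelled library and 0 in the WT-labelled library. Shares of cells were read after thinning each cell to 2000 UMIs, and cells with fewer UMIs were left out. Of the lymphatic endothelial-like cells kept, 29.9% of those of the Fgd5-ko-labelled library held an Mmp9 UMI (exact binomial interval 19.3% to 42.3%). In the WT-labelled library 7.79% did (interval 4.09% to 13.2%). The unthinned shares, over all cells of the class, were 59.7% and 12.1%. Fibroblast-like cells, taken as lacking the gene, held it in 0 of 541 thinned cells of the Fgd5-ko-labelled library, which allows up to 0.555%, and in 0 of 993 of the WT-labelled library, which allows up to 0.302%.

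Of the stromelysins, Mmp3 is a broad protease that also activates other MMPs. Mmp3 and Mmp11 were highest in different classes, although both were read in fibroblast-like cells. Mmp3 (stromelysin-1) had 0.178 CPM in basal-like, 382 in fibroblast-like and 0 in endothelial-like, lymphatic endothelial-like and mural-like cells of the Fgd5-ko-labelled library. Mmp3 in the WT-labelled library had 0.588 CPM in basal-like, 401 in fibroblast-like, 3.67 in endothelial-like, 7.55 in lymphatic endothelial-like and 1.47 in mural-like cells. The fibroblast-like intervals, 368 to 396 CPM in the Fgd5-ko-labelled library and 386 to 416 CPM in the WT-labelled library, overlap. In cells thinned to 2000 UMIs, 22.7% of fibroblast-like cells of the Fgd5-ko-labelled library and 27.4% of those of the WT-labelled library held an Mmp3 UMI, while basal-like cells, taken as lacking the gene, held it in 0 of 5565 in the Fgd5-ko-labelled library, which allows up to 0.0539%, and in 0.127% in the WT-labelled library. Mmp11 (stromelysin-3), known from stroma around epithelium, had 5.47 CPM in basal-like, 30.2 in fibroblast-like, 2.05 in endothelial-like, 0.783 in lymphatic endothelial-like and 44.3 in mural-like cells of the Fgd5-ko-labelled library. Mmp11 in the WT-labelled library had 5.27 CPM in basal-like, 11.2 in fibroblast-like, 1.47 in endothelial-like, 1.26 in lymphatic endothelial-like and 25.01 in mural-like cells. Mural-like cells were thus highest for Mmp11 in both libraries, from 26 UMIs in the Fgd5-ko-labelled library and 17 in the WT-labelled library. Fibroblast-like cluster 3, where Mmp3 was high, held Mmp11 at 51.0 and 26.8 CPM. Mural-like cluster 15 held it at 70.4 CPM (17 UMIs) and 35.0 CPM (9 UMIs).

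Among the membrane-bound MMPs, Mmp14, which activates the Mmp2 proenzyme at the cell surface, was read in every class. Mmp14 had 60.9 CPM in basal-like, 329 in fibroblast-like, 14.4 in endothelial-like, 100.2 in lymphatic endothelial-like and 49.4 in mural-like cells of the Fgd5-ko-labelled library. Mmp14 in the WT-labelled library had 40.1 CPM in basal-like, 277 in fibroblast-like, 10.3 in endothelial-like, 116 in lymphatic endothelial-like and 26.5 in mural-like cells. Lymphatic endothelial-like cells were second to fibroblast-like cells in both. Mmp15, a related membrane protease, was at 3.52 CPM in basal-like, 2.29 in fibroblast-like, 12.3 in endothelial-like, 5.48 in lymphatic endothelial-like and 3.41 in mural-like cells of the Fgd5-ko-labelled library. Mmp15 in the WT-labelled library was at 2.41 CPM in basal-like, 1.56 in fibroblast-like, 21.3 in endothelial-like, 0 in lymphatic endothelial-like and 5.89 in mural-like cells. Among the 9 cell groups compared its higher values lay in vessel clusters, with 28.7 CPM in the Fgd5-ko-labelled library and 26.7 CPM in the WT-labelled library in cluster 0, and 18.3 and 50.6 CPM in cluster 11. Classes too small to compare held more: Schwann-like cells had 155 CPM (12 UMIs) in the Fgd5-ko-labelled library and 114 CPM (15 UMIs) in the WT-labelled library, and luminal progenitor-like cells had 56.0 and 54.6 CPM.

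Mmp19 and Mmp27 kept to the stroma. Mmp19 had 0.146 CPM in basal-like, 46.6 in fibroblast-like, 2.05 in endothelial-like, 0.783 in lymphatic endothelial-like and 0 in mural-like cells of the Fgd5-ko-labelled library. Mmp19 in the WT-labelled library had 0.112 CPM in basal-like, 44.7 in fibroblast-like, 0 in endothelial-like and lymphatic endothelial-like, and 1.47 in mural-like cells. Mmp23, an MMP with an unusual domain order, was read in the epithelium as well. Mmp23 had 10.4 CPM in basal-like, 91.6 in fibroblast-like, 0 in endothelial-like, 12.5 in lymphatic endothelial-like and 20.4 in mural-like cells of the Fgd5-ko-labelled library. Mmp23 in the WT-labelled library had 18.96 CPM in basal-like, 147 in fibroblast-like, 0 in endothelial-like, 6.29 in lymphatic endothelial-like and 8.83 in mural-like cells. Mmp27, the chromosome 9 neighbour of Mmp3, had 33.5 CPM (249 UMIs) in fibroblast-like cells of the Fgd5-ko-labelled library and 14.6 CPM (103 UMIs) in those of the WT-labelled library. Mmp16, another membrane-type protease, reached 7.67 and 8.06 CPM in the same cells. Mmp7 (matrilysin) had only 17 UMIs in basal-like cells of the Fgd5-ko-labelled library and 3 in those of the WT-labelled library, and Mmp17 and Mmp28 stayed at or under 12.6 CPM in every group.

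Among the 5 classes, Adamts1, Adamts4, Adamts5, Adamts9 and Adamts15, of the proteoglycan-cutting ADAMTS branch, were highest in vessel wall, endothelium or fibroblasts. Adamts20, of the same branch but at lower levels, was instead highest in basal-like cells. It had 8.38 CPM there in the Fgd5-ko-labelled library and 5.13 CPM in the WT-labelled library. Adamts1 was well read in basal-like cells too. Adamts1 (chr16:85793827-85803113, minus strand), which cuts versican and aggrecan, had 414 CPM in basal-like, 458 in fibroblast-like, 975 in endothelial-like, 261 in lymphatic endothelial-like and 1744 in mural-like cells of the Fgd5-ko-labelled library. Adamts1 in the WT-labelled library had 194 CPM in basal-like, 368 in fibroblast-like, 406 in endothelial-like, 390.1 in lymphatic endothelial-like and 664 in mural-like cells. Mural-like cells were highest in both, with intervals of 1639 to 1854 CPM in the Fgd5-ko-labelled library and 604 to 728 CPM in the WT-labelled library. Adamts1 in cluster 19 was at 1180 CPM in the Fgd5-ko-labelled library. In the WT-labelled library it was at 654 CPM there (interval 609 to 701), close to the mural-like level. Adamts4, also an aggrecanase, had 13.5 CPM in basal-like, 43.8 in fibroblast-like, 111 in endothelial-like, 40.7 in lymphatic endothelial-like and 252 in mural-like cells of the Fgd5-ko-labelled library. Adamts4 in the WT-labelled library had 2.89 CPM in basal-like, 11.03 in fibroblast-like, 5.14 in endothelial-like, 7.55 in lymphatic endothelial-like and 73.6 in mural-like cells. Cluster 19 held a like level of Adamts4, at 253 CPM in the Fgd5-ko-labelled library and 97.7 CPM in the WT-labelled library.

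Adamts5 (chr16:85856173-85901828, minus strand), the other well-known aggrecanase, lies on the same chromosome as Adamts1 but was highest in fibroblast-like cells. Adamts5 had 7.05 CPM in basal-like, 782 in fibroblast-like, 51.3 in endothelial-like, 27.4 in lymphatic endothelial-like and 121 in mural-like cells of the Fgd5-ko-labelled library. Adamts5 in the WT-labelled library had 7.40 CPM in basal-like, 720.1 in fibroblast-like, 16.9 in endothelial-like, 34.0 in lymphatic endothelial-like and 60.3 in mural-like cells. The fibroblast-like intervals, 762 to 802 CPM in the Fgd5-ko-labelled library and 700 to 740.2 CPM in the WT-labelled library, lie close but do not overlap. Adamts9, a versican-cutting member with endothelial roles in the mouse, had 31.4 CPM in basal-like, 15.9 in fibroblast-like, 285 in endothelial-like, 233 in lymphatic endothelial-like and 111 in mural-like cells of the Fgd5-ko-labelled library. Adamts9 in the WT-labelled library had 20.3 CPM in basal-like, 12.9 in fibroblast-like, 61.0 in endothelial-like, 56.6 in lymphatic endothelial-like and 22.1 in mural-like cells. Both endothelial classes were thus above the stromal and epithelial ones within each library. Adamts15 had 1.44 CPM in basal-like, 23.4 in fibroblast-like, 0 in endothelial-like and lymphatic endothelial-like, and 18.7 in mural-like cells of the Fgd5-ko-labelled library. Adamts15 in the WT-labelled library had 1.29 CPM in basal-like, 33.5 in fibroblast-like, 0.735 in endothelial-like, 2.52 in lymphatic endothelial-like and 38.3 in mural-like cells.

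Of the procollagen N-propeptidases, which trim fibrillar procollagens, Adamts2 and Adamts14 were highest in fibroblast-like cells of both libraries. Adamts3 was not. It had 2.27 CPM in basal-like and 3.097 CPM in fibroblast-like cells of the Fgd5-ko-labelled library. In the WT-labelled library Adamts3 had 2.44 and 1.13 CPM in the same classes. Its highest group was cluster 7 in the Fgd5-ko-labelled library, from 2 UMIs, and basal-like cells in the WT-labelled library. Adamts2 had 7.63 CPM in basal-like, 149 in fibroblast-like, 0 in endothelial-like, 3.13 in lymphatic endothelial-like and 8.52 in mural-like cells of the Fgd5-ko-labelled library. Adamts2 in the WT-labelled library had 18.3 CPM in basal-like, 211 in fibroblast-like, 0.735 in endothelial-like, 13.8 in lymphatic endothelial-like and 11.8 in mural-like cells. Adamts14, of the same branch, reached 3.64 CPM in fibroblast-like cells of the Fgd5-ko-labelled library and 7.497 CPM in those of the WT-labelled library. Adamts12, which cuts cartilage oligomeric matrix protein, was shared by fibroblast-like cells and the vessel wall. Adamts12 had 1.39 CPM in basal-like, 114 in fibroblast-like, 2.05 in endothelial-like, 0 in lymphatic endothelial-like and 25.5 in mural-like cells of the Fgd5-ko-labelled library. Adamts12 in the WT-labelled library had 0.980 CPM in basal-like, 109.8 in fibroblast-like, 4.41 in endothelial-like, 2.52 in lymphatic endothelial-like and 63.3 in mural-like cells.

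Adamts18, a secreted protease known from mouse mammary basal cells and their basement membrane, was higher in basal-like cells than in the other 4 classes of both libraries. Adamts18 had 87.3 CPM in basal-like, 14.8 in fibroblast-like, 14.4 in endothelial-like, 9.39 in lymphatic endothelial-like and 1.70 in mural-like cells of the Fgd5-ko-labelled library. Adamts18 in the WT-labelled library had 78.6 CPM in basal-like, 9.62 in fibroblast-like, 13.2 in endothelial-like, 11.3 in lymphatic endothelial-like and 4.41 in mural-like cells. Cluster 7, which expresses the keratin Krt6a, held 53.8 CPM in the Fgd5-ko-labelled library and 83.6 CPM in the WT-labelled library, so basal-like cells led in the Fgd5-ko-labelled library and cluster 7 in the WT-labelled library. The fibroblast-like reads of Adamts18 lay in fibroblast-like cluster 5, which held 67.9 CPM in the Fgd5-ko-labelled library and 48.8 CPM in the WT-labelled library. Of the remaining ADAMTS genes, Adamts10, linked to fibrillin, reached 18.5 CPM in endothelial-like cells of the Fgd5-ko-labelled library and 24.2 CPM in those of the WT-labelled library. Adamts6 reached 7.83 and 11.1 CPM in cluster 0, and Adamts19 reached 6.33 and 4.81 CPM in fibroblast-like cells. Adamts20, at lower levels, was likewise highest in basal-like cells of the Fgd5-ko-labelled library (8.38 CPM) and in cluster 7 of the WT-labelled library (9.28 CPM), while Adamts3, Adamts7, Adamts8 and Adamts17 stayed at or under 12.6 CPM in every group.

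The 4 TIMPs had 4 different distributions. Timp1, the secreted inhibitor induced in many tissues on injury, had 10.7 CPM in basal-like, 83.6 in fibroblast-like, 6.16 in endothelial-like, 36.0 in lymphatic endothelial-like and 3.41 in mural-like cells of the Fgd5-ko-labelled library. Timp1 in the WT-labelled library had 8.63 CPM in basal-like, 55.6 in fibroblast-like, 5.14 in endothelial-like, 8.81 in lymphatic endothelial-like and 5.89 in mural-like cells. Timp2, which both blocks MMPs and joins Mmp14 in activating Mmp2, had 131 CPM in basal-like, 1646 in fibroblast-like, 269 in endothelial-like, 357 in lymphatic endothelial-like and 281 in mural-like cells of the Fgd5-ko-labelled library. Timp2 in the WT-labelled library had 145 CPM in basal-like, 1989 in fibroblast-like, 250.5 in endothelial-like, 698 in lymphatic endothelial-like and 156 in mural-like cells. Fibroblast-like cells were thus highest for both genes, and for Mmp2 and Mmp14 as well.

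Timp3, the matrix-bound inhibitor, was instead low in the epithelium and high in vessels. Timp3 had 109 CPM in basal-like, 345 in fibroblast-like, 1141 in endothelial-like, 940.1 in lymphatic endothelial-like and 1577 in mural-like cells of the Fgd5-ko-labelled library. Timp3 in the WT-labelled library had 171 CPM in basal-like, 684 in fibroblast-like, 1202 in endothelial-like, 1449 in lymphatic endothelial-like and 1249 in mural-like cells. Cluster 19 was above all of these in both libraries, at 3091 CPM (interval 2979 to 3206) in the Fgd5-ko-labelled library and 2160.5 CPM (interval 2078 to 2245) in the WT-labelled library. The endothelial-like intervals, 1048 to 1240.0 CPM in the Fgd5-ko-labelled library and 1144 to 1261 CPM in the WT-labelled library, overlap. In cells thinned to 2000 UMIs, 65.5% of endothelial-like cells of the Fgd5-ko-labelled library and 67.1% of those of the WT-labelled library held a Timp3 UMI, beside 18.8% and 27.6% of basal-like cells. Endothelial-like cells had medians of 7274 and 2594 UMIs before thinning, and these shares hold only for cells with at least 2000. Timp4, the inhibitor best known from heart and adipose tissue, had 0.387 CPM in basal-like, 0.135 in fibroblast-like, 71.8 in endothelial-like, 86.9 in lymphatic endothelial-like and 157 in mural-like cells of the Fgd5-ko-labelled library. Timp4 in the WT-labelled library had 0.280 CPM in basal-like, 0.707 in fibroblast-like, 60.2 in endothelial-like, 32.7 in lymphatic endothelial-like and 134 in mural-like cells. Cluster 11, whose leading genes Car4 and Gpihbp1 are markers of capillaries, held 997 CPM (interval 905 to 1095) in the Fgd5-ko-labelled library and 573 CPM (interval 508 to 644) in the WT-labelled library, although Timp4 was left out of the clustering.

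Within the fibroblast-like cells, the members did not all follow the same clusters. Mmp3 was high in cluster 3, led by Scg3, at 919 CPM in the Fgd5-ko-labelled library and 1083 CPM in the WT-labelled library. The Pi16 clusters were far lower, at 23.5 CPM in cluster 13 (202 cells of the Fgd5-ko-labelled library, 0 of the WT-labelled library) and 57.6 CPM in cluster 25 of the WT-labelled library (4 and 454 cells). Adamts12 followed Mmp3, with 266 CPM in the Fgd5-ko-labelled library and 334 CPM in the WT-labelled library in cluster 3, against 25.3 CPM in cluster 13 of the Fgd5-ko-labelled library and 34.9 CPM in cluster 25 of the WT-labelled library. Timp1 did likewise, at 178 and 148 CPM in cluster 3 beside 15.1 CPM in cluster 13 and 21.8 CPM in cluster 25. Timp2 and Timp3 ran the other way and were higher in the Pi16 clusters. Timp2 had 2581 CPM in cluster 13 of the Fgd5-ko-labelled library and 2587 CPM in cluster 25 of the WT-labelled library, beside 977 and 1226 CPM in cluster 3. Timp3 had 621 CPM in cluster 13 and 948 CPM in cluster 25, beside 153 and 296 CPM in cluster 3. Adamts5 was at 1156 CPM in cluster 13, 819 CPM in cluster 25, and lowest in cluster 10, led by Sfrp5, at 250 CPM in the Fgd5-ko-labelled library and 299 CPM in the WT-labelled library. Adamts16 was highest in the Pi16 clusters, at 9.92 CPM in cluster 13 and 45.1 CPM in cluster 25, and had 0 UMIs in clusters 3 and 10.

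**Figure D2:**
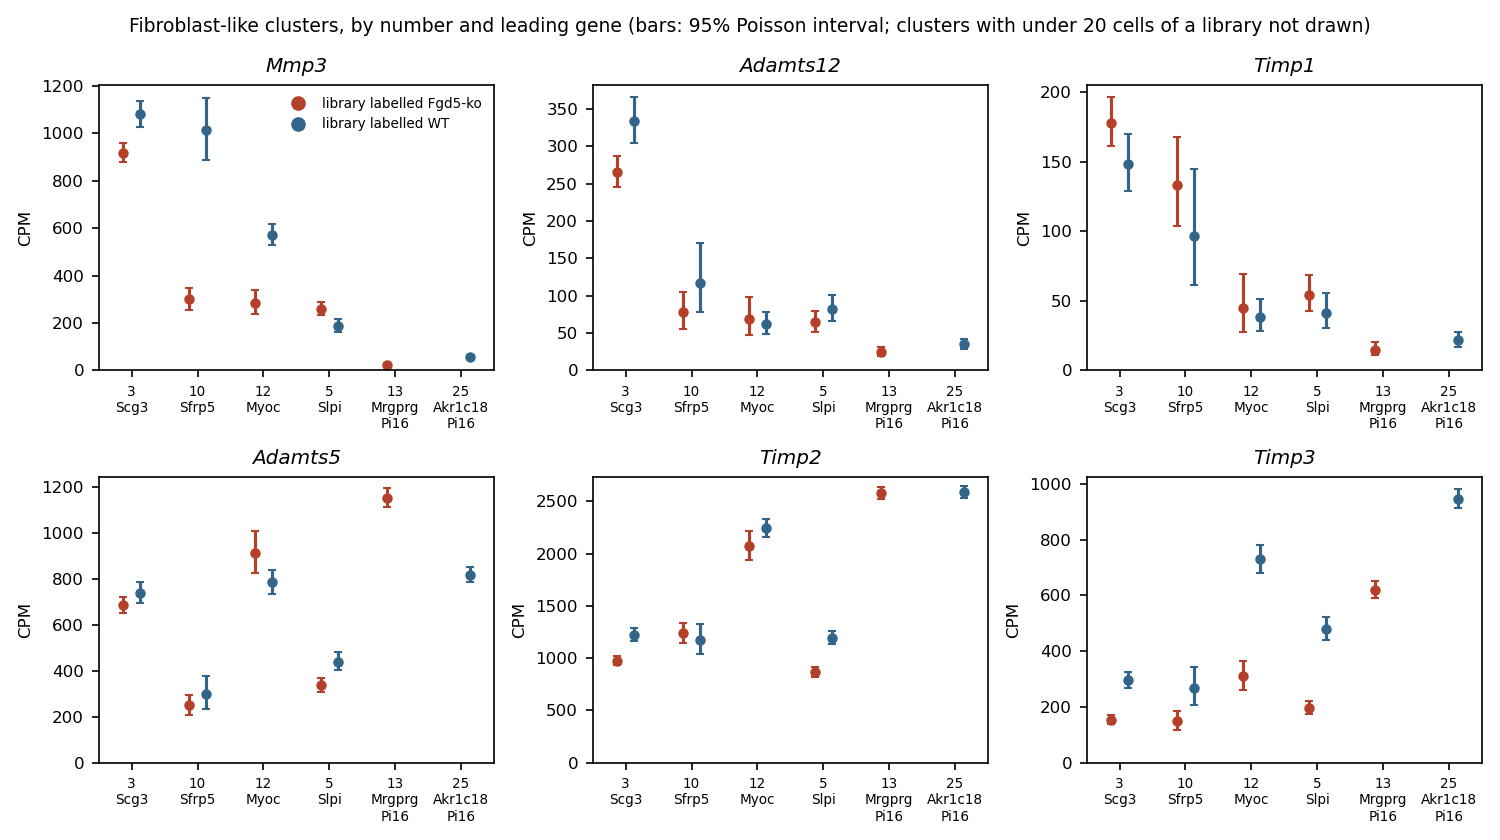
Levels (CPM) of 6 members in fibroblast-like clusters, by library, with 95% Poisson intervals as bars; clusters with under 20 cells of a library are not drawn for it. Mmp3, Adamts12 and Timp1 are highest in cluster 3, and Timp2 and Timp3 are highest in the Pi16 clusters 13 and 25, each of which is nearly all 1 library.

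Vessel-lining clusters were told apart by their TIMPs. Cluster 16 (Sele, Vwf, Selp) had 379 CPM of Timp2 and 396 CPM of Timp3 in the Fgd5-ko-labelled library, and 400 and 383 CPM of the same genes in the WT-labelled library. Cluster 18 (Gkn3, Sema3g, Bmx), whose leading genes are arterial markers, had 95.1 CPM of Timp2 and 2314 CPM of Timp3 in the Fgd5-ko-labelled library, and 154 and 1732 CPM in the WT-labelled library. Cluster 17, led by Glycam1, a marker of the venules through which lymphocytes enter lymph nodes, was like cluster 16 in Timp2, at 375 and 366 CPM, but lower in Timp3, at 122 and 127 CPM. Clusters 0 and 11 had little Timp2 and much Timp3: Timp2 was at 18.3 CPM in the Fgd5-ko-labelled library and 24.8 CPM in the WT-labelled library in cluster 0, and Timp3 at 1522 and 1238 CPM. Timp4 was at 6.71 and 3.74 CPM in cluster 16, and at 174 and 96.8 CPM in cluster 18. Mmp15 was read in cluster 17 as well, at 64.2 CPM in the Fgd5-ko-labelled library and 51.2 CPM in the WT-labelled library. Mmp9 in the lymphatic class lay in cluster 21 (Ccl20, Marco, Lyve1), at 219 CPM in the Fgd5-ko-labelled library and 63.4 CPM in the WT-labelled library, while the Mmrn1 cluster 6 had 0 in the WT-labelled library and too few cells, 13, in the Fgd5-ko-labelled library. Outside the vessels, unnamed cluster 23 (Ccl19, Cxcl13) held Mmp9 at 13.1 and 44.3 CPM.

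**Figure D3:**
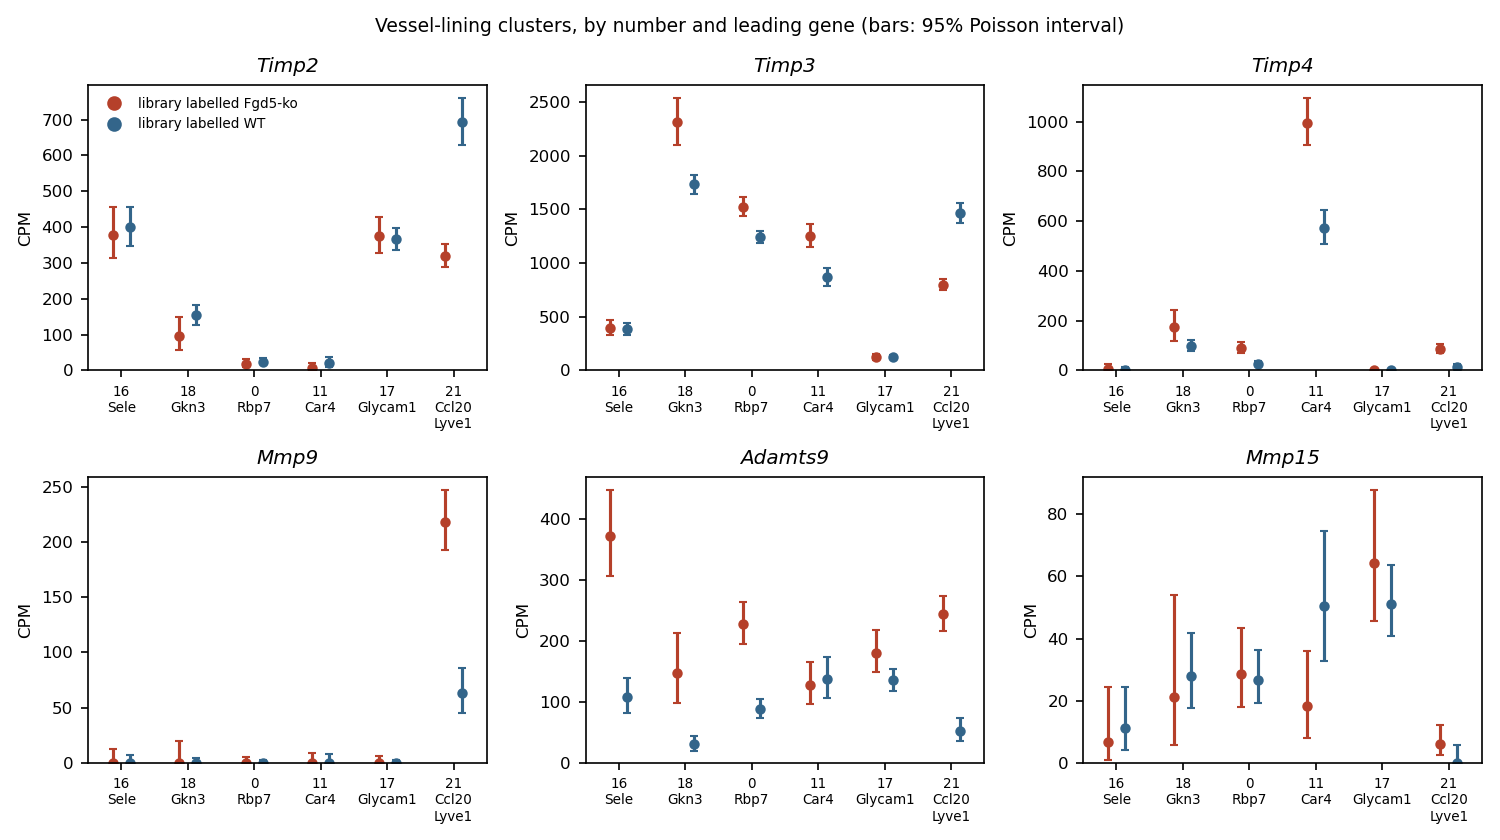
Levels (CPM) of 6 members in clusters of vessel-lining cells, by library, with 95% Poisson intervals as bars. Timp2 is highest in clusters 16, 17 and 21, Timp3 in clusters 18, 0, 11 and 21, Timp4 in cluster 11, and Mmp9 is at or near 0 outside cluster 21.

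Mural-like cells held 2 clusters, the Rgs5 cluster 15 of pericyte type and cluster 2, led by the smooth muscle genes Nrip2, Pln and Rergl. Adamts1 was alike in both, at 1715 CPM in the Fgd5-ko-labelled library and 685 CPM in the WT-labelled library in cluster 15, and at 1764 and 651 CPM in cluster 2. Timp3 was higher in cluster 15, at 2387 and 1949 CPM against 1012 and 824 CPM in cluster 2, and Timp4 was higher in cluster 2, at 228 and 192 CPM against 53.9 and 38.9 CPM in cluster 15. Adamts12 lay in cluster 15, at 62.2 and 140 CPM, with 0 and 16.6 CPM in cluster 2.

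Between the libraries, the listed basal-like cells of the Fgd5-ko-labelled library had more Adamts1 and Adamts4 and less Adamts2 and Timp3. Of 27 members with at least 20 UMIs there, 6 were at least 1.5-fold higher and 6 at least 1.5-fold lower in the Fgd5-ko-labelled library, against 26.9% and 10.4% of all genes tested. The members' median log2 ratio was 0.16, beside 0.24 over all genes. The higher members had log2 ratios of 2.23 for Adamts4 (interval 1.94 to 2.53), 1.09 for Adamts1 (1.06 to 1.13), 0.71 for Adamts20 (0.48 to 0.95), 0.63 for Adamts9 (0.51 to 0.75) and 0.60 for Mmp14 (0.52 to 0.69). The lower ones had -1.27 for Adamts2 (-1.42 to -1.11), -1.05 for Adamts6 (-1.62 to -0.47), -0.87 for Mmp23 (-1.01 to -0.73), -0.73 for Adamts10 (-0.96 to -0.51) and -0.65 for Timp3 (-0.69 to -0.60). Scaling by trimmed means of log ratios (TMM) shifts all basal-like ratios down by 0.18, which leaves 3 members higher and 6 lower, and takes Adamts20, Adamts9 and Mmp14 under 1.5-fold. The share of all genes past 1.5-fold after this shift was not computed. Among cells of 4000 to 12000 UMIs in both libraries, Adamts20 was at -0.30, Adamts9 at -0.09 and Adamts6 at 0.57, the opposite direction for all 3.

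The basal-like class was held by different clusters in the 2 libraries. Only basal-like clusters 6, 9 and 11 of its 16 had at least 20 cells in each, and they held 625 of the 5565 cells of the Fgd5-ko-labelled library and 157 of the 6360 of the WT-labelled library. Within them, Adamts1 had a log2 ratio of -0.04 in cluster 6 (interval -0.48 to 0.43), 1.73 in cluster 9 (0.80 to 2.86) and -0.47 in cluster 11 (-0.88 to -0.07), so its difference did not keep 1 direction across them. Timp3 was at -1.86 in cluster 6 (-2.25 to -1.45), -1.11 in cluster 9 (-1.61 to -0.56) and 0.36 in cluster 11 (-0.07 to 0.79). Across the other clusters, Adamts1 ran between 113 CPM in cluster 4 and 732 CPM in cluster 1 of the Fgd5-ko-labelled library, and between 59.7 CPM in cluster 13 and 315 CPM in cluster 16 of the WT-labelled library. Basal-like cells outside the authors' list (334 in the Fgd5-ko-labelled library and 51 in the WT-labelled library, with medians of 42328 and 19299 UMIs) did not show the lower Timp3. Timp3 stood there at 111 CPM in the Fgd5-ko-labelled library and 70.8 CPM in the WT-labelled library, Adamts2 at 7.28 CPM and 2.87 CPM (3 UMIs), and Adamts1 at 357 and 109 CPM. All 51 of the WT-labelled library lay in cluster 1 of those cells, led by histone genes and Top2a, where the log2 ratio was 0.68 for Timp3 (0.33 to 1.05), 1.57 for Adamts2 (-0.06 to 3.89) and 1.52 for Adamts1 (1.25 to 1.81). The share of listed basal-like cells with an Adamts1 UMI, thinned to 2000 UMIs, was 37.1% in the Fgd5-ko-labelled library (interval 35.9% to 38.4%) and 24.4% in the WT-labelled library (23.3% to 25.5%), beside 70.2% and 39.4% unthinned. No class lacked the gene, so no background share can be set beside it.

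In fibroblast-like cells, 9 of 30 members were higher and 5 lower in the Fgd5-ko-labelled library, against 18.5% and 13% of all genes, with a median log2 ratio of 0.18 beside 0.05 over all genes. Adamts4 had a log2 ratio of 1.99 (interval 1.63 to 2.36), Mmp11 of 1.43 (1.06 to 1.82), Mmp27 of 1.20 (0.87 to 1.55), Adamts18 of 0.62 (0.17 to 1.08) and Timp1 of 0.59 (0.40 to 0.77). On the lower side stood Adamts16 at -2.45 (-3.05 to -1.90), Adamts14 at -1.04 (-1.77 to -0.35), Adamts10 at -1.04 (-1.46 to -0.63), Timp3 at -0.99 (-1.06 to -0.92) and Mmp23 at -0.69 (-0.83 to -0.55). Clusters with at least 50 cells in each library kept most directions. Timp3 was at -0.95 in cluster 3 (-1.16 to -0.75), -1.29 in cluster 5 (-1.50 to -1.07) and -0.86 in cluster 10 (-1.36 to -0.37), and Mmp27 was at 1.69 in cluster 3 (0.86 to 2.63), 2.01 in cluster 5 (0.71 to 3.57) and 2.40 in cluster 10 (0.39 to 5.53, from 24 and 2 UMIs). Mmp2 was lower in all 3, at -0.60, -0.60 and -0.50, although it was within 1.5-fold over the class. Mmp3 was near equal over the class and was at -0.24 in cluster 3 (-0.33 to -0.14), which held most of its UMIs. It was further apart elsewhere, at 0.47 in cluster 5 (0.22 to 0.73) and -1.76 in cluster 10 (-2.05 to -1.46). Over the clusters with at least 50 cells in each library, Adamts18 stood at 0.09 and Timp1 at 0.40. In cells of 4000 to 12000 UMIs Adamts18 had the opposite direction, at -2.28 from 2 UMIs in the Fgd5-ko-labelled library and 32 in the WT-labelled library.

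Marker RNA of other cells differed between the fibroblast-like groups, and its part in these ratios was not tested apart from the values given here. The basal marker list (9 of 9 genes read in both) summed to 1803 CPM in the Fgd5-ko-labelled library and 1400 CPM in the WT-labelled library. At the share given by Krt14, 12.8% of the basal-like level in the Fgd5-ko-labelled library and 5.89% in the WT-labelled library, basal RNA would bring 11.2 of the 14.8 CPM and 4.63 of the 9.62 CPM of Adamts18. In basal-like cells, beside their lower Timp3, the endothelial list (8 of 8 genes read in both) summed to 11.2 CPM in the Fgd5-ko-labelled library and 17.3 CPM in the WT-labelled library. In fibroblast-like cells the endothelial list (8 of 8 genes read in both) summed to 22.9 CPM in the Fgd5-ko-labelled library and 102 CPM in the WT-labelled library, beside the lower Timp3.

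In endothelial-like cells, 4 of 12 members were higher and 2 lower in the Fgd5-ko-labelled library, against 18.6% and 19.4% of all genes. Adamts4 had a log2 ratio of 4.43 (interval 3.29 to 5.81) from 54 UMIs in the Fgd5-ko-labelled library and 7 in the WT-labelled library, Adamts9 of 2.23 (1.82 to 2.64) and Adamts1 of 1.26 (1.08 to 1.44). Cluster 16 carried most of the Adamts4, at 171 CPM in the Fgd5-ko-labelled library and 13.1 CPM in the WT-labelled library. With the unnamed clusters whose highest list was endothelial added to the class, the ratios were 2.03 for Adamts4, 1.05 for Adamts9 and 0.85 for Adamts1. The fibroblast list was read with 4 of 8 genes and 69.8 CPM in the Fgd5-ko-labelled library, and with 8 of 8 genes and 175 CPM in the WT-labelled library, and its part was not tested.

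Lymphatic endothelial-like cells of the Fgd5-ko-labelled library had more Mmp9 and less Mmp2 and Timp2. There, 6 of 14 members were higher and 4 lower, against 17.9% and 24% of all genes, with a median log2 ratio of -0.24 beside -0.10 over all genes. The log2 ratio was 2.43 for Adamts4 (interval 1.21 to 3.94), 2.04 for Adamts9 (1.59 to 2.53), 2.03 for Timp1 (0.87 to 3.42), 1.98 for Mmp9 (1.5004 to 2.49) and 1.41 for Timp4 (0.78 to 2.08). It was -2.62 for Mmp2 (-3.68 to -1.68), -0.97 for Timp2 (-1.15 to -0.79) and -0.62 for Timp3 (-0.74 to -0.51). Adamts1, at -0.58 (-0.80 to -0.35), was within 1.5-fold and lower in the Fgd5-ko-labelled library. Within cluster 21 alone, Mmp9 was at 1.79 (1.31 to 2.30), Timp4 at 2.64 (1.66 to 3.81), Timp2 at -1.12 (-1.32 to -0.92) and Mmp2 at -2.34 (-3.43 to -1.35). The fibroblast list (8 of 8 genes read in both) summed to 54.8 CPM in the Fgd5-ko-labelled library and 831 CPM in the WT-labelled library. At the share given by Mmp3, fibroblast RNA would bring 16.1 of the 57.9 CPM of Mmp2 in the WT-labelled library. That share rests on 6 UMIs of 1 gene that is uneven among fibroblast-like clusters, and the part of fibroblast RNA was not tested. In the cells of 4000 to 12000 UMIs, 20 in the Fgd5-ko-labelled library and 89 in the WT-labelled library, Mmp9 was at -1.20 from 4 and 29 UMIs and Timp3 at 0.42, the opposite direction for both.

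In mural-like cells, 7 of 11 members were higher and 2 lower in the Fgd5-ko-labelled library, against 21.5% and 14.4% of all genes, with a median log2 ratio of 0.85 beside 0.07 over all genes. Adamts9 had a log2 ratio of 2.33 (interval 1.5005 to 3.24), Adamts4 of 1.78 (1.31 to 2.27), Adamts1 of 1.39 (1.23 to 1.56), Adamts5 of 1.003 (0.43 to 1.59), Timp2 of 0.85 (0.49 to 1.22) and Adamts12 of -1.31 (-2.26 to -0.43). Timp2 differed in cluster 15, at 447 CPM in the Fgd5-ko-labelled library and 167 CPM in the WT-labelled library, but not beyond its interval in cluster 2, at 0.14 (-0.40 to 0.68). The fibroblast list (8 of 8 genes read in both) summed to 846 CPM in the Fgd5-ko-labelled library and 700.4 CPM in the WT-labelled library, and its part was not tested. The basal list was read with 10717 CPM in the Fgd5-ko-labelled library and 13592 CPM in the WT-labelled library here, because it holds the smooth muscle genes Acta2, Myl9, Mylk and Cnn1.

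**Figure D4:**
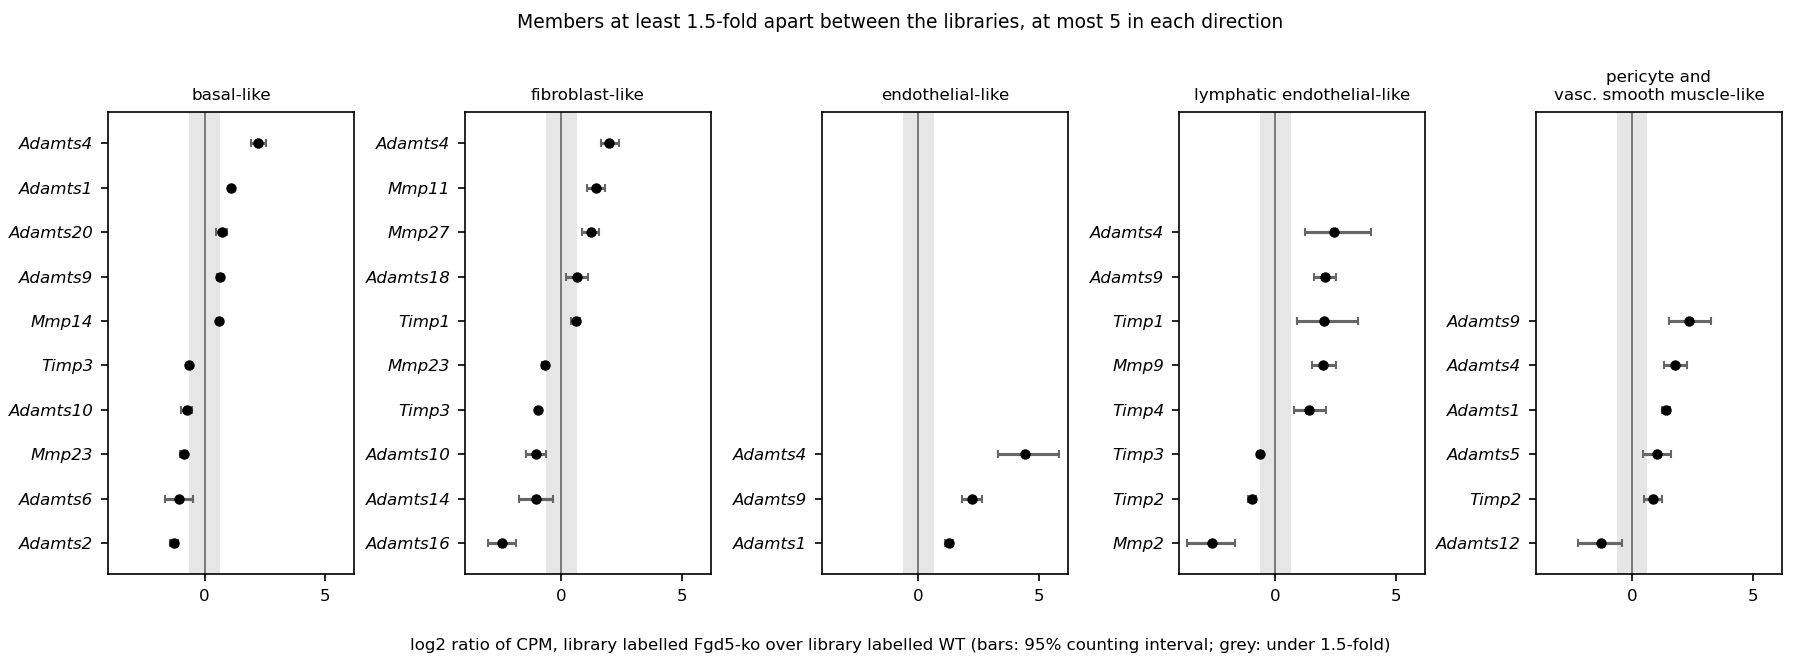
Log2 ratios of CPM, Fgd5-ko-labelled library over WT-labelled library, for members at least 1.5-fold apart in each class, at most 5 in each direction, with 95% counting intervals as bars and the range under 1.5-fold in grey. Adamts4 is on the higher side in all 5 classes, from 1.78 in mural-like to 4.43 in endothelial-like cells.

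The unnamed clusters gave the following counts in the Fgd5-ko-labelled library. Cluster 0 had 4 of 10 members higher and 1 lower, against 19% and 14.2% of all genes, with log2 ratios of 1.77 for Timp4 (interval 1.20 to 2.37), 1.38 for Adamts9 (1.04 to 1.71) and 0.82 for Adamts1 (0.65 to 0.99). Cluster 7 had 2 of 11 higher and 3 lower, against 19% and 19.8%, with 0.98 for Mmp14 (0.40 to 1.53), 0.79 for Mmp2 (0.24 to 1.33) and -0.63 for Adamts18 (-1.20 to -0.10). Cluster 11 had 2 of 6 higher and 2 lower, against 19.8% and 18.4%, with 1.43 for Adamts1 (1.08 to 1.80) and 0.80 for Timp4 (0.58 to 1.02). Cluster 19 had 6 of 14 higher and 2 lower, against 21.1% and 11.3%. There the log2 ratio was 1.48 for Adamts9 (1.07 to 1.90), 1.38 for Adamts4 (1.05 to 1.71), 1.02 for Timp4 (0.57 to 1.47), 0.92 for Mmp14 (0.07 to 1.79), 0.85 for Adamts1 (0.72 to 0.99) and -0.91 for Adamts5 (-1.82 to -0.07).

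Immediate early genes, which are switched on within minutes of stress or growth signals and by tissue dissociation, were higher in the Fgd5-ko-labelled library as well, and their values are given here beside Adamts1, Adamts4 and Adamts9. The list of 12 (Fos, Fosb, Jun, Junb, Egr1, Atf3, Ier2, Ier3, Zfp36, Btg2, Dusp1 and Nr4a1) was chosen after the data were seen. Its sum was 35279 CPM in basal-like cells of the Fgd5-ko-labelled library and 18272 CPM in those of the WT-labelled library, with 9 of 12 genes past 1.5-fold higher and 0 lower. Fibroblast-like cells had 40862 CPM in the Fgd5-ko-labelled library and 19503 CPM in the WT-labelled library, endothelial-like cells 38562.5 and 18374 CPM, lymphatic endothelial-like cells 42771 and 20083 CPM, and mural-like cells 48256 and 27368 CPM. The numbers past 1.5-fold higher were 10 in fibroblast-like, 11 in endothelial-like, 10 in lymphatic endothelial-like and 9 in mural-like cells. Adamts1 did not follow the sum everywhere: in lymphatic endothelial-like cells it was 261 CPM in the Fgd5-ko-labelled library and 390.1 CPM in the WT-labelled library. Among basal-like clusters of the Fgd5-ko-labelled library, cluster 1 (led by Rrad) had 48443 CPM of the list beside 732 CPM of Adamts1, and cluster 4 had 8250.2 CPM beside 113 CPM. The part of the immediate early genes in the ADAMTS differences was not tested.

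**Figure D5:**
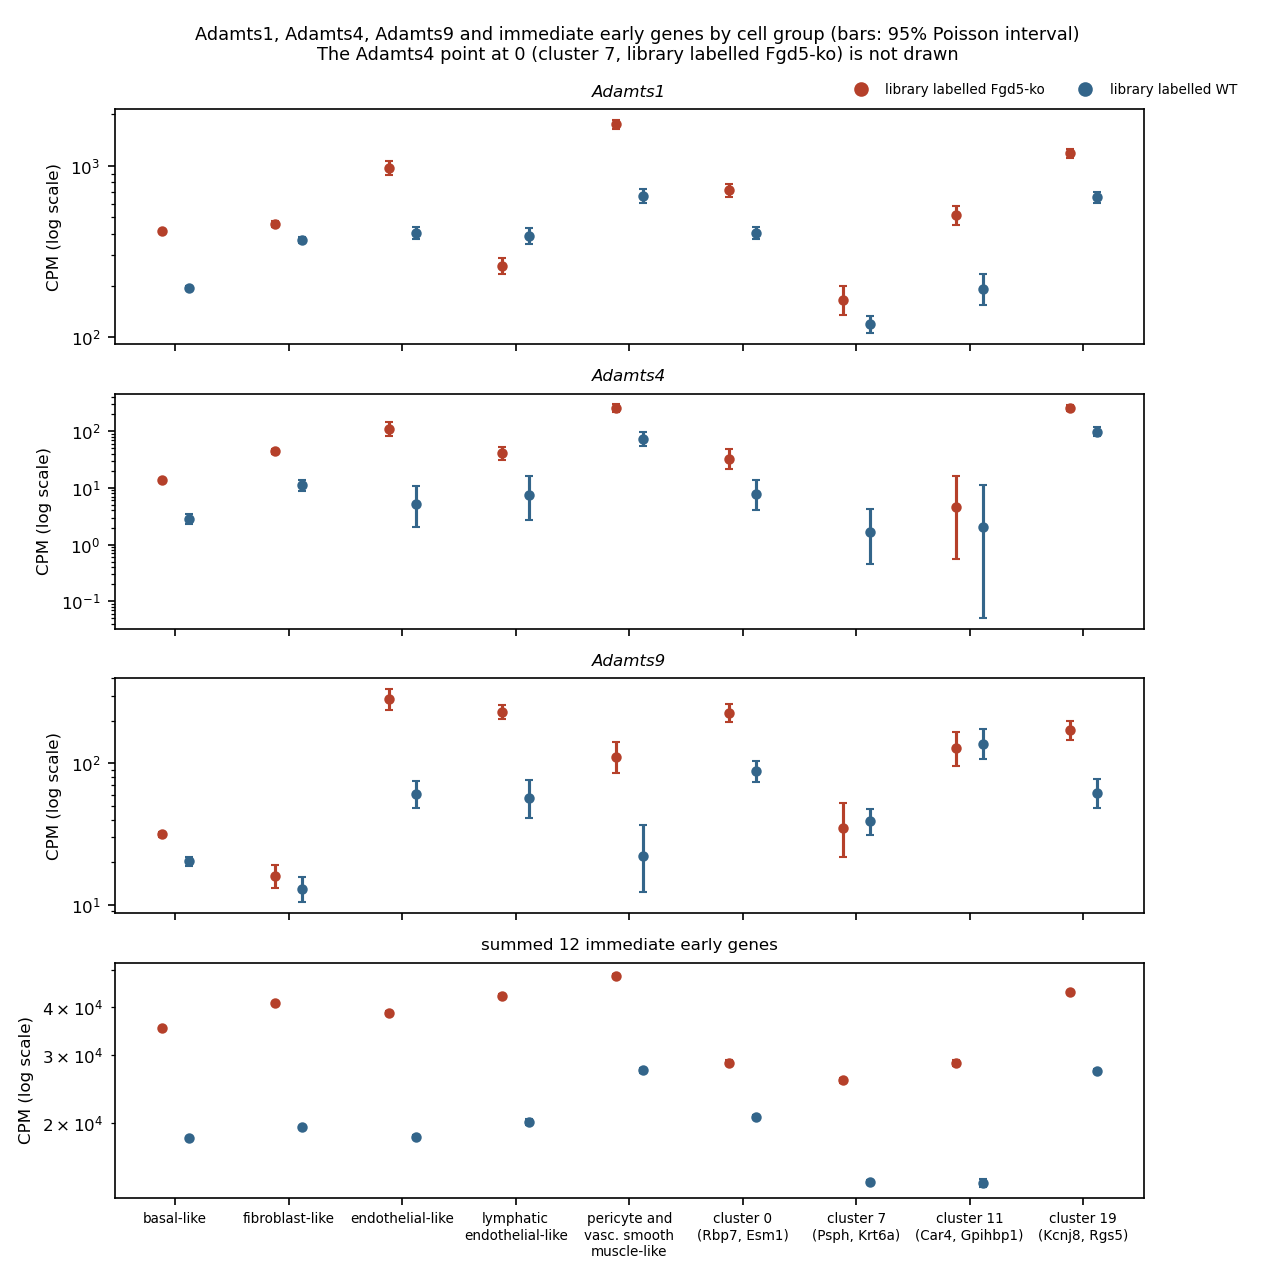
Levels (CPM, log scale) of Adamts1, Adamts4, Adamts9 and the summed immediate early genes in 9 cell groups of both libraries, with 95% Poisson intervals as bars. The summed list is higher in the Fgd5-ko-labelled library in every group, and Adamts1 is higher in it in every group but lymphatic endothelial-like cells.

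Summed by family, proteases and inhibitors differed in different amounts. Basal-like cells had 149 CPM of MMPs, 596 CPM of ADAMTS genes and 251 CPM of TIMPs in the Fgd5-ko-labelled library, and 136, 354 and 325 CPM of the same families in the WT-labelled library. Fibroblast-like cells had 1569 CPM of MMPs, 1638 CPM of ADAMTS genes and 2075 CPM of TIMPs in the Fgd5-ko-labelled library, and 1759, 1543 and 2729 CPM in the WT-labelled library. Endothelial-like cells had 53.4 CPM of MMPs, 1459 CPM of ADAMTS genes and 1488 CPM of TIMPs in the Fgd5-ko-labelled library, and 70.5, 538 and 1518 CPM in the WT-labelled library. In endothelial-like cells the ADAMTS sum was thus the one that differed most between the libraries. Lymphatic endothelial-like cells had 334 CPM of MMPs, 605 CPM of ADAMTS genes and 1420 CPM of TIMPs in the Fgd5-ko-labelled library, and 254, 549 and 2189 CPM in the WT-labelled library. Mural-like cells had 152 CPM of MMPs, 2306 CPM of ADAMTS genes and 2018 CPM of TIMPs in the Fgd5-ko-labelled library, and 83.9, 968 and 1545 CPM in the WT-labelled library. The direction of the lymphatic MMP and TIMP sums is not stable: in cells of 4000 to 12000 UMIs their log2 ratios were -0.75 and 0.29, in place of 0.40 and -0.62, and without Mmp9 the MMP ratio was -0.63. Over all cells of each class, with no alternative computed, the ratio of summed proteases to summed TIMPs was 2.96 in the Fgd5-ko-labelled library and 1.51 in the WT-labelled library in basal-like cells, 1.55 and 1.21 in fibroblast-like, 1.02 and 0.401 in endothelial-like, 0.662 and 0.367 in lymphatic endothelial-like, and 1.22 and 0.681 in mural-like cells. In several classes 1 gene carries a family sum: without Adamts1 the basal-like ADAMTS log2 ratio is 0.19 in place of 0.75.

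A list of 42 genes of the same pathway, holding substrates, activators, other inhibitors and related proteases, was read beside the members. In basal-like cells, 5 of 37 measured were higher and 10 lower in the Fgd5-ko-labelled library. Vcan, encoding versican, a substrate of Adamts1 and Adamts4, had 217 CPM in the Fgd5-ko-labelled library and 57.8 CPM in the WT-labelled library (log2 ratio 1.91), and Eln, encoding elastin, had 39.7 and 119 CPM (-1.59). Cd44, a hyaluronan receptor, had 47.0 and 27.5 CPM, and Sdc4, a cell surface proteoglycan, had 702 and 460.0 CPM. In fibroblast-like cells, 7 of 35 were higher and 7 lower. Eln was again lower, at 143 CPM in the Fgd5-ko-labelled library and 434 CPM in the WT-labelled library, and Adam19, a membrane-bound relative of the ADAMTS enzymes, had 20.6 and 41.0 CPM. Thbs1, a matrix glycoprotein, was higher at 260.0 and 126 CPM.

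In endothelial-like cells, 3 of 21 genes of the list were higher and 4 lower, with log2 ratios of 1.48 for Thbs1, 1.35 for Spock2, 1.20 for Plaur, the urokinase receptor, and -0.75 for Sdc1. In lymphatic endothelial-like cells, 7 of 26 were higher and 12 lower. The fibroblast genes Col1a1 (-7.08), Col3a1 (-4.99) and Dcn (-2.72) led the lower side. These genes are part of the fibroblast list summed above for lymphatic endothelial-like cells, so the sum is not separate from them. Sdc1, a cell surface proteoglycan, had 149.5 CPM in lymphatic endothelial-like cells of the Fgd5-ko-labelled library and 17.6 CPM in those of the WT-labelled library. In mural-like cells, 8 of 24 were higher and 5 lower, with Dcn at 283 CPM in the Fgd5-ko-labelled library and 47.1 CPM in the WT-labelled library (2.59), Col1a1 at -1.45, Sdc4 at 0.91 and Fn1, encoding fibronectin, at 0.89. The percentages of all genes given above for each class apply to these counts as well.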

How the data were processed

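The files hold gene by cell matrices of whole UMI counts, deposited by the authors and made with Cell Ranger (3.1.0 per the file headers). Seurat 3.0 and mm9 are named as well, per the submitters' processing notes. A table of other values, the authors' deposited t-SNE coordinates, was used only for the list of cells: its 2 coordinate columns were not used. The files carry no genome coordinates; those printed come from GENCODE M21 (GRCm38) and RefSeq (GRCm38.p6).

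Cell barcodes outside the authors' list were kept with at least 1000 UMIs, at least 500 genes and at most 15% mitochondrial UMIs. Listed and other cells were clustered separately with scanpy 1.11.5 and leidenalg 0.10.2 (counts scaled to 10000 per cell, 2000 variable genes without the members, 30 principal components, 15 neighbours). Clusters were named from 13 marker lists fixed with the design; how they were scored was settled with the data in view. No doublet caller was run. Among other limits, a cluster stayed unnamed where its best list led by under 1 log2, or where another list held more of its top genes. Named clusters can still hold RNA of 2 classes. Fibroblast-like cluster 5 held Adamts18 at 67.9 and 48.8 CPM, beside 87.3 and 78.6 CPM in basal-like cells of the 2 libraries, and mixing there was not tested.

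Counts were summed per library and class. UMIs count 3' ends, so levels were not scaled by length. Log2 ratios of CPM carry exact counting intervals (level 95%, SciPy 1.17.1), PCR-duplicate reads being collapsed by UMI. Depth per library is given with the cells, and the precision of each value follows from its UMIs. In counts simulated with counting error alone, all genes changed 4-fold passed 1.5-fold (100%), which the size of the change makes near certain. Of unchanged genes, 3.48% did so at basal-like depth (14829 genes) and 12.7% at lymphatic endothelial-like depth (8494 genes). The simulation holds no differences between cells, clusters or animals, so these shares are not error rates for the library differences.

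Members with at least 20 CPM in both libraries in 1 class were named with levels in every class; members with at least 50 UMIs and at least 1.5-fold apart were named by ratio, at most 5 in each direction; of the pathway list, the 4 largest ratios (1 of them is not reported here). Members and lists were chosen with earlier results of these data known. Classes under 50 cells in a library, among them luminal-like and Schwann-like cells, were not compared.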

Additional observations from a re-analysis of the deposited data

Results flagged for a closer look

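In 4 members the library difference was past 1.5-fold in opposite directions in different cell groups, counting only values from at least 50 UMIs whose interval excluded 0. Adamts18 had a log2 ratio (Fgd5-ko-labelled library over WT-labelled library) of 0.62 in fibroblast-like cells and -0.63 in cluster 7, but the fibroblast-like value was -2.28 in cells of 4000 to 12000 UMIs and 0.09 over clusters with at least 50 cells in each library. Adamts5 was at 1.003 in mural-like cells and -0.91 in cluster 19. Mmp2 was at 0.79 in cluster 7 and -2.62 in lymphatic endothelial-like cells. Timp2 was at 0.85 in mural-like cells and -0.97 in lymphatic endothelial-like cells, with 0.14 in mural-like cluster 2. With 1 library per group, none of these differences was tested.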

How the results depend on the processing

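Over 37 member ratios and 266 alternative values, 260 kept their direction and 6 did not, all in cells of 4000 to 12000 UMIs: Adamts20 (-0.30), Adamts9 (-0.090) and Adamts6 (0.57) in basal-like, Adamts18 (-2.28) in fibroblast-like, and Mmp9 (-1.20) and Timp3 (0.42) in lymphatic endothelial-like cells. The cause of these reversals was not tested. Of the other ratios with a value in that depth range, 18 kept their direction but left the main interval, and 11 stayed within it. A ratio without UMIs in either library there gave no value, so not all 37 were checked at that depth. The scaling settings could not turn a ratio past 1.5-fold, since their shifts reach only 0.18. Many other settings draw on largely the same cells, so the count of 260 says little about depth.

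Counts of members past 1.5-fold were 12 in basal-like, 14 in fibroblast-like, 6 in endothelial-like, 10 in lymphatic endothelial-like and 9 in mural-like cells. At 2-fold they were 6 in basal-like, 8 in fibroblast-like and 6 in lymphatic endothelial-like cells. With at least 100 UMIs they were 9 in fibroblast-like, 2 in endothelial-like, 5 in lymphatic endothelial-like and 4 in mural-like cells, and in cells of 4000 to 12000 UMIs 6 in lymphatic endothelial-like cells. A stricter limit counts fewer by construction. Shares over all genes were not computed at these other settings, so these counts cannot be set against a background.

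Family sums as log2 ratios in cells of 4000 to 12000 UMIs were 0.51 for MMPs, 1.07 for ADAMTS genes and -0.20 for TIMPs in basal-like cells (0.13, 0.75 and -0.37 over all cells), -0.00301, 0.038 and -0.48 in fibroblast-like cells (-0.17, 0.09 and -0.40), 1.29 for ADAMTS genes and -0.38 for TIMPs in endothelial-like cells (1.44 and -0.03), -0.75, 1.19 and 0.29 in lymphatic endothelial-like cells (0.40, 0.14 and -0.62), and 1.65 for MMPs and 1.05 for ADAMTS genes in mural-like cells (0.85 and 1.25). Without the member with most UMIs, they were 0.26 for MMPs, 0.19 for ADAMTS genes and -0.58 for TIMPs in basal-like cells, 0.031 for MMPs and -0.79 for TIMPs in fibroblast-like cells, 1.88 for ADAMTS genes and 0.14 for TIMPs in endothelial-like cells, -0.63 for MMPs and 1.12 for ADAMTS genes in lymphatic endothelial-like cells, and 0.88 for ADAMTS genes and 0.58 for TIMPs in mural-like cells.

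Thinned to 1500 UMIs, the share with an Adamts1 UMI was 32.2% and 20.9% in basal-like cells of the Fgd5-ko-labelled and WT-labelled libraries, and in the WT-labelled library that of Mmp3 was 23.8% in fibroblast-like and that of Timp3 60.0% in endothelial-like cells. Fibroblast-like cells were highest for 16 members at clustering resolution 0.5 and for 13 at resolution 2, against 15. In an alternative added after the data were seen, fibroblast-like clusters with at least 50 cells in each library gave 6 members higher and 7 lower. Shares over all genes were not computed for this alternative or for the other resolutions. No value was had for lymphatic endothelial-like cells at resolution 2 or mural-like cells at resolution 0.5.

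No paired analysis was possible because each group has 1 library. The shift that TMM takes off each log2 ratio was 0.18 in basal-like and -0.14 in lymphatic endothelial-like cells, and that of median-ratio scaling was 0.15 in mural-like cells. Depth limits the low levels: 3 UMIs come to 6.16 CPM in endothelial-like cells of the Fgd5-ko-labelled library and 2.20 CPM in those of the WT-labelled library, and to 0.0314 and 0.0840 CPM in basal-like cells.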
